A study of Homo sapiens with 30 samples.

Results

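The genes described here encode the proteins of the mitochondrial ribosome (mitoribosome). They were taken by symbol: every protein-coding gene whose symbol, mapped from its Ensembl identifier, starts with MRPL (large subunit) or MRPS (small subunit). This gave 78 genes, 49 MRPL and 29 MRPS, of 60675 genes in the count table of the overexpression experiment and 58051 in that of the knockout experiment. The overexpression experiment compared the lentiviral hairpin of the microRNA miR-1 in a GFP vector (miR-1 OE) with the empty vector (EV) in MV4-11 and Molm-14, which are human acute myeloid leukemia (AML) lines with an internal tandem duplication of FLT3. The knockout experiment compared a CRISPR/Cas9 GFP vector carrying a single guide against MPC1, a subunit of the mitochondrial pyruvate carrier (MPC1 KO), with its own EV in both of these lines and in THP-1, a human AML line of monocytic type. Each of the 10 groups held 3 libraries of total RNA. All groups were transduced lines, each KO rested on 1 guide, and the labels do not say whether the 3 libraries were separate cultures, so the p-values measure only the spread between these libraries.

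Mitoribosomes translate the few proteins that mitochondrial DNA encodes, all of them core subunits of the respiratory chain or of ATP synthase. Their rRNAs are transcribed from mitochondrial DNA, whereas every protein of both subunits is encoded in the nucleus, made in the cytosol and imported. The proteins with a bacterial counterpart form the old core around the decoding and peptidyl transferase centres, and mitochondria-specific proteins surround it. AML cells have been described as sensitive to a block of mitochondrial translation. Among the 78 genes, 45 had a bacterial homolog and 32 were mitochondria-specific. MRPS36 was left unclassed, since its product is now held to be no stable part of the mitoribosome. The products of MRPS30 and MRPS18A sit in the large subunit despite their names, and both genes are counted with MRPS as their symbols stand.

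Library totals ran from 15543301 to 20939985 counts in the overexpression experiment and from 5339360 to 9106478 in the knockout experiment, and the 78 genes took 0.343% to 0.433% and 0.412% to 0.696% of them. All 78 genes entered the test in the overexpression experiment. In the knockout experiment 77 did, because MRPS24 had too few counts. The tables differ in their gene models, so levels are compared only within an experiment. The family has many processed copies in the genome, but 79 annotated pseudogenes of these genes drew counts equal to only 0.277% (overexpression) and 0.0930% (knockout) of the members' counts. Of the members, 16 share over 20% of their exonic bases with another protein-coding gene, 9 of them on the same strand, which makes their counts less certain. The targeted genes followed the labels. MPC1 in MV4-11 stood at 56.4, 58.3 and 53.7 CPM (counts scaled to a common library size) in EV and 26.0, 24.8 and 23.5 in KO. It fell in Molm-14 by 1.04 and in THP-1 by 0.84 on the log2 scale. MIR133A1HG, the host transcript of the MIR1-2 hairpin, had 34 to 73 counts in every OE library and 0 in every EV library of the overexpression experiment. Defining markers of T cells, erythroid cells, epithelium and fibroblasts were below 1 CPM in every library, and myeloid markers summed to 1068 to 2379 CPM (overexpression) and 1493 to 9031 CPM (knockout). In bulk RNA, fewer cells that express a gene and less of its RNA per cell cannot be told apart.

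Per unit of transcript length, the family ran over a wide range of levels. Transcript levels (TPM, scaled to a common total per library) were computed from the counts with the length of each gene's canonical transcript. In the 6 EV libraries of the overexpression experiment the median was 65.9 TPM for MRPL genes (16.1 to 223) and 73.3 TPM for MRPS genes (11.8 to 178). The highest large subunit genes there were MRPL4 at 223 ± 28.4 (SD, n = 6), MRPL3 at 206 and MRPL18 at 193 TPM, and the lowest was MRPL53 at 16.1 TPM. MRPS30 at 178, MRPS27 at 145 and MRPS12 at 139 TPM led the genes named for the small subunit, and MRPS33 was lowest at 11.8 TPM. In the knockout experiment MRPL33 (467 TPM), MRPL18 (372 TPM) and MRPL3 (327 TPM) led the large subunit. MRPS30 (234 TPM), MRPS34 (226 TPM) and MRPS21 (203 TPM) led the other list. The lowest were MRPL38 at 5.86 TPM among MRPL genes and MRPS24 at 2.89 TPM among MRPS genes. MRPL3, a protein near the peptidyl transferase centre, and MRPL18, a protein of the central protuberance, were thus among the leading members in both experiments. Among the lowest genes, MRPL53 shares 72.8%, MRPL38 41.1% and MRPS24 23.2% of exonic bases on the same strand with another protein-coding gene. The ranking depended on the length used. With all exonic bases of a gene in place of the canonical transcript, MRPL4 took rank 12 among MRPL genes in the overexpression experiment and MRPS30 took rank 11 (overexpression) and 10 (knockout) among MRPS genes, and the rank correlation between both scales was 0.701 (MRPL) and 0.682 (MRPS) across genes there.

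The first question was whether miR-1 OE moved these genes. No MRPL and no MRPS gene passed the test (false discovery rate, FDR, under 5%) in MV4-11, where 0.177% of 17542 genes did, or in Molm-14, where 0.00570% did. In MV4-11 the median log2 fold change (OE minus EV) was 0.020 for MRPL and 0.020 for MRPS, beside 0.0069 over all genes tested. In Molm-14 the medians were 0.022 and 0.021, beside 0.0 over all genes. Single genes were bounded closely: the 95% interval of the log2 fold change lay within 0.5 of zero for 49 of 49 MRPL and 28 of 29 MRPS genes in MV4-11, and for 47 of 49 and 28 of 29 in Molm-14. An unadjusted p under 0.05 was reached in MV4-11 by 0 MRPL and 3 MRPS genes, and in Molm-14 by 3 and 0. The share of all genes at that threshold is not given here, so these counts have no background beside them. DESeq2's Wald test also called 0 members in both lines.

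The genes nearest to a call in MV4-11 both belonged to the small subunit list. MRPS18B, a protein of the small subunit classed here as mitochondria-specific, stood at 52.2, 49.8 and 51.7 CPM in EV and at 55.7, 59.1 and 57.8 CPM in OE. The groups did not overlap, and the log2 fold change was 0.17 ± 0.054 (SE; FDR 0.420, edgeR). MRPS6 stood at 38.6, 41.6 and 38.5 CPM in EV and 32.3, 36.3 and 33.9 CPM in OE, again without overlap, with a log2 fold change of -0.21 ± 0.073 (FDR 0.520). MRPS6 on chromosome 21 (34073224 to 34143034, plus strand, GRCh38) shares 6.20% of its exonic bases on the same strand with SLC5A3, a myo-inositol transporter gene within its span. SLC5A3 moved the same way in MV4-11 and passed the test, at 170, 172 and 166 CPM in EV and 141, 136 and 144 CPM in OE (log2 fold change -0.27, FDR 0.0225). In Molm-14, MRPL42 stood at 268, 270 and 279 CPM in EV and at 251, 259 and 256 CPM in OE, without overlap (log2 fold change -0.093 ± 0.042, FDR 1.0). MRPS18B, MRPS6 and MRPL42 had the smallest unadjusted p of their subunit lists there, so the lack of overlap is no separate support. No single member was thus separated from its EV libraries by the test in either line.

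**Figure D1:**
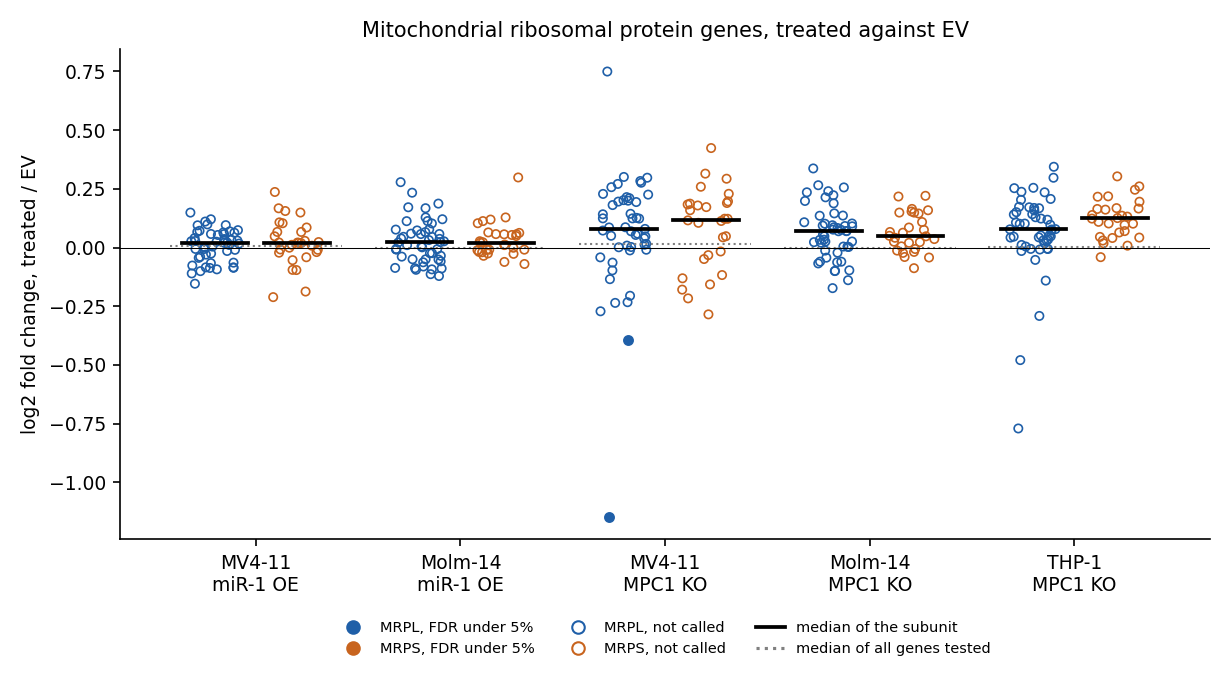
Log2 fold change of every MRPL and MRPS gene against EV in the 5 treated comparisons (miR-1 OE in MV4-11 and Molm-14, MPC1 KO in MV4-11, Molm-14 and THP-1). Points are genes, filled where FDR was under 5%, black bars mark the subunit medians, which lie between 0.020 and 0.124, and dotted lines the medians of all genes tested. The 2 filled points are MRPL12 and MRPL4 in the MV4-11 KO.

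In MV4-11, 2 libraries of the overexpression experiment stood apart in interferon-stimulated genes. Their mean level was 4.93 log2 CPM in OE replicate 1 and 3.34 in EV replicate 3, against 1.70 to 1.98 in the other 4 MV4-11 libraries. The summed level of the MRPL genes was lowest in these libraries within each group, at 1985 CPM in OE replicate 1 against 2383 and 2208 in the other OE libraries, and at 2085 CPM in EV replicate 3 against 2254 and 2193. Without OE replicate 1 the MRPL and MRPS medians were both 0.091, and without EV replicate 3 they were -0.016 and -0.010. No member was called in either fit. The part of the interferon genes in these levels was not tested.

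The members were also read for matches to miR-1 itself. The mature strand is shown because its seed, bases 2 to 8 in capitals, sets which messenger RNAs it can pair with. Below it stand sites of 7 letters in the 3′ UTRs of 4 members (canonical transcripts, GRCh38), with the site in capitals. ACATTCC pairs with the whole seed, whereas CATTCCA pairs with bases 2 to 7 and adds an A opposite base 1. The sites were chosen since MRPL42, MRPS27 and MRPL4 are named elsewhere among the results. MRPL19 and MRPL42 had the smallest unadjusted p among MRPL genes under miR-1 OE in Molm-14, both lower in OE. The choice of sites thus followed values already seen. The MRPL42 site shown first lies at chr12:93507213-93507219 and the other at chr12:93511836-93511842 (both plus strand), the MRPL19 site at chr2:75658650-75658656 (plus), the MRPS27 site at chr5:72220092-72220098 (minus) and the MRPL4 site at chr19:10259911-10259917 (plus).
hsa-miR-1-3p: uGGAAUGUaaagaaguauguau
MRPL42 site a: actgactccatCATTCCActggatgtgcc
MRPL42 site b: gtggtaagagaACATTCCggaataattac
MRPL19: atttccaagttCATTCCAttgtgattaga
MRPS27: gggatactcacACATTCCcacattctcct
MRPL4: ctggaccccttCATTCCAcggaggaagct

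Of the 78 genes, 9 held a 7-letter or 8-letter site of either kind for miR-1 in the 3′ UTR (11.538%), beside 19.92% of 19538 protein-coding genes, and 1 gene, MRPL13, held the 8-letter site (1.282% beside 4.816%). The UTRs of the family were of very unequal length, from 51 bases in MRPL39 to 14993 in MRPL42. In MV4-11 the 9 genes with a match lay at a median of 0.0078 on the log2 scale, with 4 of 9 lower in OE, beside 0.020 for the other 69. The Molm-14 medians were -0.070, with 5 of 9 lower, and 0.023. MRPL19 stood there at 97.9, 97.8 and 97.7 CPM in EV and at 89.9, 88.3 and 93.1 CPM in OE (log2 fold change -0.11 ± 0.053, FDR 1.0), and was not called. MRPS27 and MRPL4, with a match each, had log2 fold changes of 0.010 and 0.032 in Molm-14. The 9 genes ran there from -0.113 to 0.121, and MRPL52 (0.121) and MRPL30 (0.103), also with a match, lay higher in OE. A match of letters is a description and not a shown target site.

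The genes around the mitoribosome gave the same counts under miR-1 OE. None of the 5 mitoribosomal proteins with other symbols (such as DAP3), 28 assembly factors, 18 translation factors or 20 mitochondrial tRNA synthetases passed the test in either line. The rRNAs of the mitoribosome lay higher in OE without passing the test. MT-RNR1, the small subunit rRNA, stood in MV4-11 at 11.2, 10.3 and 10.4 CPM in EV and at 64.0, 41.6 and 43.9 CPM in OE (log2 fold change 2.23, FDR 0.0672), and in Molm-14 at 16.5, 8.49 and 20.9 CPM in EV and 50.1, 44.8 and 72.8 CPM in OE (1.86, FDR 0.713). MT-RNR2, the large subunit rRNA, gave 2.63 (FDR 0.0521) in MV4-11 and 1.66 (FDR 1.0) in Molm-14. The OE and EV libraries did not overlap for either rRNA in either line. These RNAs were depleted before sequencing by the ribosomal RNA removal step of the library kit, so their counts are what that step left, and the part of that step was not tested. The cytosolic ribosomal proteins, the nearest comparison group, had 0 of 79 calls in both lines, with medians of 0.00070 in MV4-11 and 0.117 in Molm-14, where 77 of 79 lay higher in OE. The change under OE did not differ between the lines for any member (0 calls of 78, beside 0.0456% of all genes).

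The second question was whether loss of MPC1 moved these genes. In MV4-11, 2 of 49 MRPL genes (4.08%) passed the test, both lower in KO, and 0 of 28 MRPS genes, beside 5.41% of 14490 genes in either direction and 2.24% lower. The share of MRPL genes called was thus close to that of all genes. The median log2 fold change (KO minus EV) was 0.079 for MRPL, with 37 of 49 higher, and 0.119 for MRPS, with 19 of 28 higher, beside 0.015 over all genes. Most members therefore moved by little and in the other direction from the 2 that were called. An unadjusted p under 0.05 was reached by 14 MRPL and 6 MRPS genes. These counts are not set beside the share of all genes at that threshold and are not read as a result about the members. At the lower depth of this experiment the 95% interval lay within 0.5 of zero for 40 of 49 MRPL and 25 of 28 MRPS genes in MV4-11, for 44 and 27 in Molm-14 and for 44 and 25 in THP-1.

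MRPL12 encodes the stalk protein that brings translation factors to the large subunit. The gene lies on the plus strand of chromosome 17 (ENSG00000262814, 81703367 to 81707517). In MV4-11 it drew 130, 72 and 114 counts from the EV libraries and 39, 55 and 52 from the KO libraries, which is 15.1, 9.69 and 17.6 CPM against 5.55, 6.89 and 6.54 CPM. Every KO library lay below every EV library, and the log2 fold change was -1.15 ± 0.233 (SE, n = 3 libraries per group; edgeR quasi-likelihood FDR 0.0062). Of its exonic bases, 69.5% are shared on the same strand with the protein-coding readthrough gene ENSG00000262660, and how reads in shared exons were assigned is not given in the sources used here. The call was lost without EV replicate 3 (FDR 0.0583) and without KO replicate 1 (FDR 0.0512).

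MRPL4 encodes a core protein that lines the tunnel through which the new peptide leaves. It lies on chromosome 19 (ENSG00000105364, 10251901 to 10260055, plus strand). It stood at 77.8, 76.6 and 87.3 CPM in EV and at 52.9, 67.2 and 63.2 CPM in KO, again without overlap (log2 fold change -0.40 ± 0.114, FDR 0.0412). Its call was lost when EV replicate 2, EV replicate 3, KO replicate 1 or KO replicate 3 was left out, with FDR up to 0.257. MRPL12 and MRPL4 both have a bacterial homolog and lie in the large subunit. The nearest members in the other direction were MRPS18C, at 54.6, 51.0 and 41.3 CPM in EV and 61.7, 64.7 and 56.9 CPM in KO (log2 fold change 0.31, FDR 0.0645), and MRPS17 (0.42, FDR 0.0681). Neither passed the test. Of MRPS18C's exonic bases, 40.2% overlap ABRAXAS1 on the other strand. MRPS17 shares 22.4% of its exonic bases on the same strand with the protein-coding gene ENSG00000249773.

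**Figure D2:**
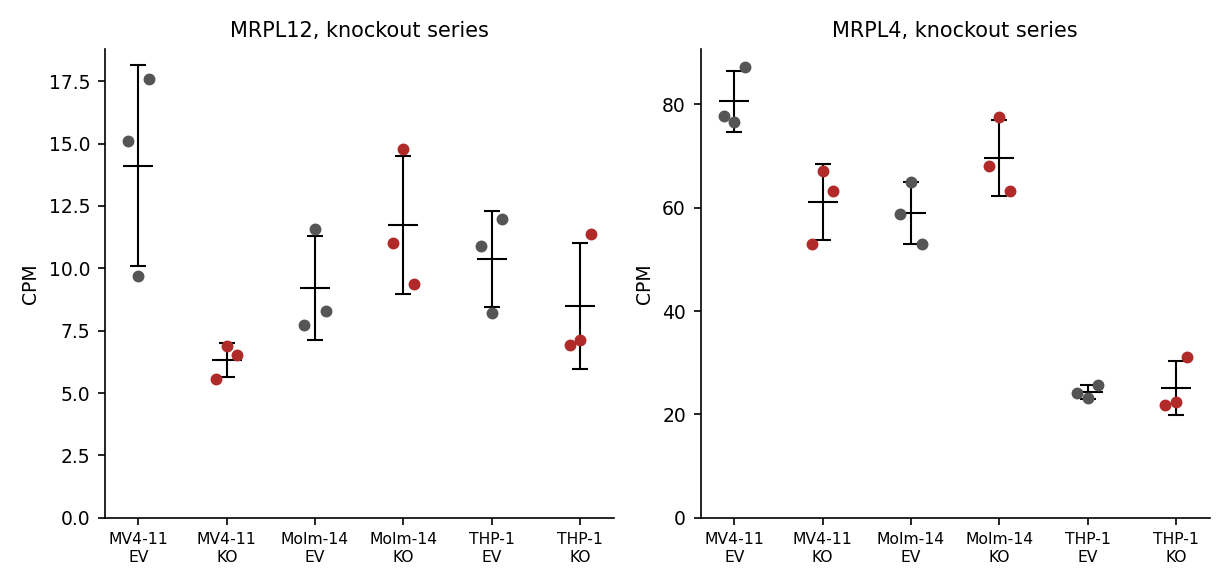
Levels of MRPL12 and MRPL4 in CPM (y axis) in every library of the knockout experiment, by line and vector (x axis), grey for EV and red for MPC1 KO, with the mean and SD of 3 libraries. In MV4-11 every KO library lies below every EV library for both genes, whereas in Molm-14 and THP-1 the EV and KO libraries overlap.

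In Molm-14 and THP-1 no member passed the test, beside 2.40% and 0.0897% of all genes. The Molm-14 medians were 0.070 for MRPL and 0.049 for MRPS (0 over all genes), and the THP-1 medians were 0.077 and 0.124 (0.0034 over all genes). In THP-1, 39 of 49 MRPL and 27 of 28 MRPS genes lay higher in KO. An unadjusted p under 0.05 was reached there by 6 MRPL genes, of which MRPL53 was lower in KO, and by 2 MRPS genes. In Molm-14, 2 MRPL and 0 MRPS genes did. For both lines the share of all genes at that unadjusted threshold is not given, so no excess is read from these counts. The cytosolic ribosomal proteins lay on the same side, with medians of 0.101, 0.071 and 0.188 in MV4-11, Molm-14 and THP-1. DESeq2's Wald test called 0 members in either of these lines. MRPL16, a core protein of the large subunit, came nearest in THP-1, with 67.6, 67.4 and 58.0 CPM in EV and 87.9, 81.7 and 75.7 CPM in KO (log2 fold change 0.34, FDR 0.321). MRPL51 followed there, with 51.3, 46.6 and 46.6 CPM in EV and 59.1, 61.9 and 56.8 CPM in KO (0.30, FDR 0.514). For both genes the THP-1 groups did not overlap, but they had the smallest unadjusted p among MRPL genes there. The lack of overlap is thus no separate support. Of MRPL51's exonic bases, 27.6% overlap NCAPD2 on the other strand. MRPL34 in Molm-14 had a log2 fold change of 0.27 (FDR 0.406).

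The summed levels of each subunit overlapped between EV and KO. In THP-1 the numbers paired the libraries only in part: EV replicate 2 correlated more with KO replicate 1 (0.39) than with KO replicate 2 (0.301). The MRPL genes summed there to 2978, 2842 and 2528 CPM in EV and 3125, 3013 and 2814 CPM in KO. The MRPS genes summed to 1715, 1693 and 1459 CPM in EV and 1828, 1766 and 1630 CPM in KO. Each KO library thus lay above the EV library of its number, while no member passed the test with or without the block. In MV4-11 the MRPL genes summed to 3618, 3026 and 3179 CPM in EV and 3580, 3565 and 3232 CPM in KO. The share of counts from mitochondrial DNA moved against these sums: the EV libraries with 3026 and 3179 CPM had 0.452% and 0.392% of their counts from mitochondrial genes, and the one with 3618 CPM had 0.211%. In the KO libraries of MV4-11 that share was 0.140% to 0.202%. Its part in the small positive medians was not tested. Without EV replicate 1, which had the lowest mitochondrial share of the EV group, the MV4-11 medians were 0.179 (MRPL) and 0.189 (MRPS), and 6 MRPL genes (4 higher, 2 lower) and 3 MRPS genes passed the test. The share of all genes called in that fit is not given here, so no excess is read from these counts. The balance of the subunits stayed closer than their sums: the ratio of MRPL to MRPS CPM in MV4-11 was 1.599 ± 0.023 (SD, n = 3) in EV and 1.608 ± 0.011 in KO.

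The effect of the KO on MRPL12 and MRPL4 was compared between the lines directly. MRPL12 stood in Molm-14 at 7.74, 11.6 and 8.31 CPM in EV and 11.0, 14.8 and 9.38 CPM in KO, and the KO effect there exceeded that in MV4-11 by 1.48 ± 0.326 on the log2 scale (FDR 0.0172). MRPL4 stood in Molm-14 at 58.7, 65.0 and 53.0 CPM in EV and 68.0, 77.6 and 63.1 CPM in KO, and its effect exceeded that in MV4-11 by 0.64 ± 0.162 (FDR 0.0424). These were 2 of 49 MRPL genes, both with a higher effect in Molm-14, beside 1.48% of all genes (0.945% higher). In each Molm-14 comparison the groups overlapped. Between THP-1 and MV4-11 the MRPL12 effect differed by 0.86 (FDR 0.421) and no member passed the test, beside 0.193% of all genes, and between THP-1 and Molm-14 none did, beside 0.766%. The interaction calls were lost for both genes without MV4-11 EV replicate 3, MV4-11 KO replicate 1, Molm-14 EV replicate 3 or Molm-14 KO replicate 2.

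Among the partner genes, 1 of 28 assembly factors passed the test in the MV4-11 KO (3.57%, beside 5.41% of all genes). This was ERAL1, a GTPase that chaperones the small subunit rRNA, which fell by 0.46 on the log2 scale (FDR 0.0347). No translation factor, tRNA synthetase or mitoribosomal protein with another symbol passed in any of the 3 lines, and no assembly factor did in Molm-14 or THP-1. The templates of the mitoribosome lay lower in the MV4-11 KO: 3 of 13 protein-coding mitochondrial genes passed the test, all lower (23.1%, beside 2.24% lower of all genes), with a list median of -0.75. As given above, the mitochondrial share of counts was high in 2 EV libraries, whereas EV replicate 1, at 0.211%, lay close to the KO libraries, at 0.140% to 0.202%. MT-RNR1 (-3.97, FDR 0.124) and MT-RNR2 (-3.12, FDR 0.0588) did not pass.

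Many more members differed between the lines than between treated and EV cells. In EV libraries of the overexpression experiment, Molm-14 was higher than MV4-11 for 19 and lower for 11 of 49 MRPL genes, and higher for 14 and lower for 2 of 29 MRPS genes. In all, 61.2% of MRPL and 55.2% of MRPS genes were called, beside 64.8% of all genes (31.9% higher and 32.9% lower). In the knockout experiment the counts were 24 higher and 6 lower of 49 MRPL, and 18 higher and 1 lower of 28 MRPS genes, beside 61.7% of all genes (31.6% higher and 30.1% lower). The share called was thus near the background, while the calls of MRPS genes lay mostly on the Molm-14 side. The medians of Molm-14 over MV4-11 were 0.092 (MRPL) and 0.154 (MRPS) in the overexpression experiment, with -0.010 over all genes, and 0.27 and 0.34 in the knockout experiment, with 0 over all genes.

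The largest of these differences recurred in both experiments, whose libraries were separate. MRPL33, a small core protein of the large subunit, was lower in Molm-14: EV levels were 56.7, 46.8 and 47.5 CPM in MV4-11 and 20.8, 23.0 and 18.6 CPM in Molm-14, and the log2 fold changes were -1.28 ± 0.133 (FDR 8.77e-07) in the overexpression and -1.32 ± 0.120 (FDR 6.49e-10) in the knockout experiment. MRPL33 shares 21.1% of its exonic bases with BABAM2 on the same strand. MRPL42, a mitochondria-specific protein, was higher in Molm-14, at 268, 270 and 279 CPM against 134, 133 and 131 CPM in MV4-11 (log2 fold change 1.04 ± 0.043, and 1.14 ± 0.098 in the knockout experiment). For neither gene did the EV libraries of the lines come near each other.

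In the small subunit list, MRPS27, a pentatricopeptide-repeat protein that binds RNA, stood at 226, 237 and 239 CPM in Molm-14 and 130, 129 and 124 CPM in MV4-11 (log2 fold change 0.88 ± 0.046, and 1.06 ± 0.074 in the knockout experiment). MRPS30, whose product sits in the large subunit, was also higher in Molm-14 (0.87 and 0.98). MRPS18B (0.75 and 0.93) and MRPS18A (0.57 and 0.75) were called higher in both experiments, whereas the third paralog, MRPS18C, was called only in the knockout experiment (0.09 and 0.27). Of MRPS18A's exonic bases, 50.9% overlap RSPH9 on the other strand, and whether the counting used strand is not stated. MRPS6 was lower in Molm-14 (-0.65 and -0.71), beside -0.71 and -0.79 for SLC5A3, and was the single MRPS gene lower in both experiments. MRPL45, which anchors the ribosome to the inner membrane beside the tunnel exit, was higher in both (0.46 and 0.75). MRPS12, a protein of the decoding centre, was called in neither (0.14 and 0.23), and MRPL58, a peptidyl-tRNA hydrolase built into the large subunit, was called lower only in the overexpression experiment (-0.32 and -0.05).

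Of the 30 MRPL genes called in the overexpression experiment, 21 (70.0%) were called in the same direction in the knockout experiment, where 30 were called (70.0%). Of these, 16 were higher and 5 lower in Molm-14. For MRPS, 14 genes were shared, which is 87.5% of 16 and 73.7% of 19, and 13 of them were higher in Molm-14. No member was called in opposite directions. Over the 13627 genes tested in both experiments the shares were 74.4% and 82.3%. Across genes, which are not replicates, Pearson's correlation between both experiments was 0.896 for 49 MRPL, 0.882 for 28 MRPS and 0.911 for all genes.

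**Figure D3:**
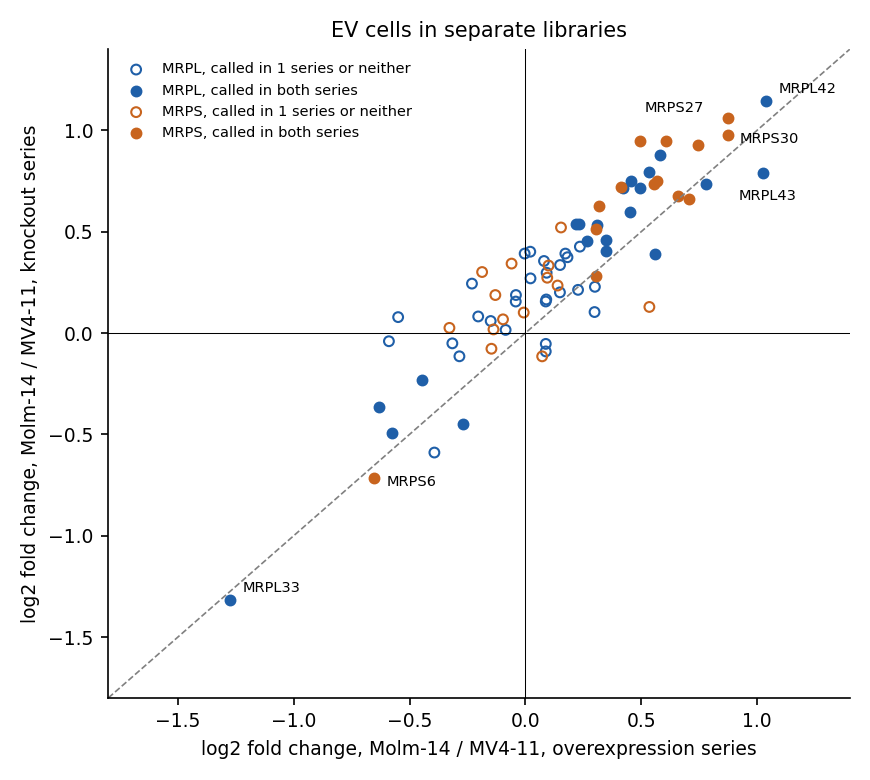
Log2 fold change of Molm-14 over MV4-11 in EV cells, in the overexpression (x axis) and the knockout experiment (y axis), 1 point per gene, filled where called in both, with a dashed line at equality. MRPL33 lies lowest at -1.28 and -1.32 and MRPL42 highest at 1.04 and 1.14.

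THP-1 had the lowest summed levels of both subunits. Against MV4-11, 3 MRPL genes were higher and 20 lower (46.9% called), and 3 MRPS genes higher and 17 lower (71.4%), beside 67.5% of all genes (34.6% higher and 32.9% lower). Against Molm-14, 1 MRPL gene was higher and 35 lower (73.5%), and 0 MRPS genes higher and 23 lower (82.1%), beside 69.6% of all genes (35.5% higher and 34.1% lower). The medians were -0.17 (MRPL) and -0.32 (MRPS) against MV4-11 and -0.54 and -0.63 against Molm-14. The 3 comparisons between lines within the knockout experiment share their EV libraries, so their values are given side by side and not as separate support.

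The MRPS genes with the largest drop were MRPS16, MRPS18B and MRPS26 against Molm-14, and MRPS26, MRPS16 and MRPS12 against MV4-11. MRPS16, a core protein of the small subunit (ENSG00000182180, chromosome 10, 73248843 to 73252693, minus strand), stood at 279, 235 and 263 CPM in Molm-14, 171, 142 and 152 CPM in MV4-11 and 65.0, 60.8 and 50.4 CPM in THP-1. The log2 fold change of THP-1 was -2.13 ± 0.094 over Molm-14 (FDR 3.78e-17) and -1.40 ± 0.093 over MV4-11. MRPS18B stood at 153, 136 and 140, at 82.3, 71.0 and 72.2 and at 37.9, 35.1 and 30.8 CPM in the same order of lines (-2.04 and -1.11). The 3 lines did not overlap for either gene, and their order was Molm-14, MV4-11, THP-1. MRPS26 gave -1.89 and -1.70, and MRPS12 -1.50 and -1.26.

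In the large subunit, MRPL43 fell furthest in THP-1 against Molm-14 (-2.07 ± 0.129), followed by MRPL36 (-1.95), MRPL54 (-1.57), MRPL57 (-1.50) and MRPL51 (-1.32). MRPL43 stood at 87.1, 71.6 and 88.1 CPM in Molm-14, 57.3, 41.5 and 43.3 CPM in MV4-11 and 21.1, 19.1 and 18.3 CPM in THP-1. Of its exonic bases, 34.0% overlap SEMA4G on the other strand, with the same doubt as for MRPS18A. MRPL4 was highest in MV4-11, at 77.8, 76.6 and 87.3 CPM, and lowest in THP-1, at 24.1, 23.2 and 25.7 CPM (-1.73 ± 0.125 against MV4-11). MRPL37, a mitochondria-specific protein (ENSG00000116221, chromosome 1, 54184041 to 54225464, plus strand), went the other way. It stood at 278, 261 and 238 CPM in THP-1 and at 101.7, 114 and 114 CPM in MV4-11 and 107, 99.7 and 111 CPM in Molm-14, and was the single member called higher in THP-1 than in both other lines (1.24 ± 0.080 and 1.29 ± 0.080). MV4-11 and Molm-14 overlapped for MRPL37 and differed by -0.05 (FDR 0.587).

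**Figure D4:**
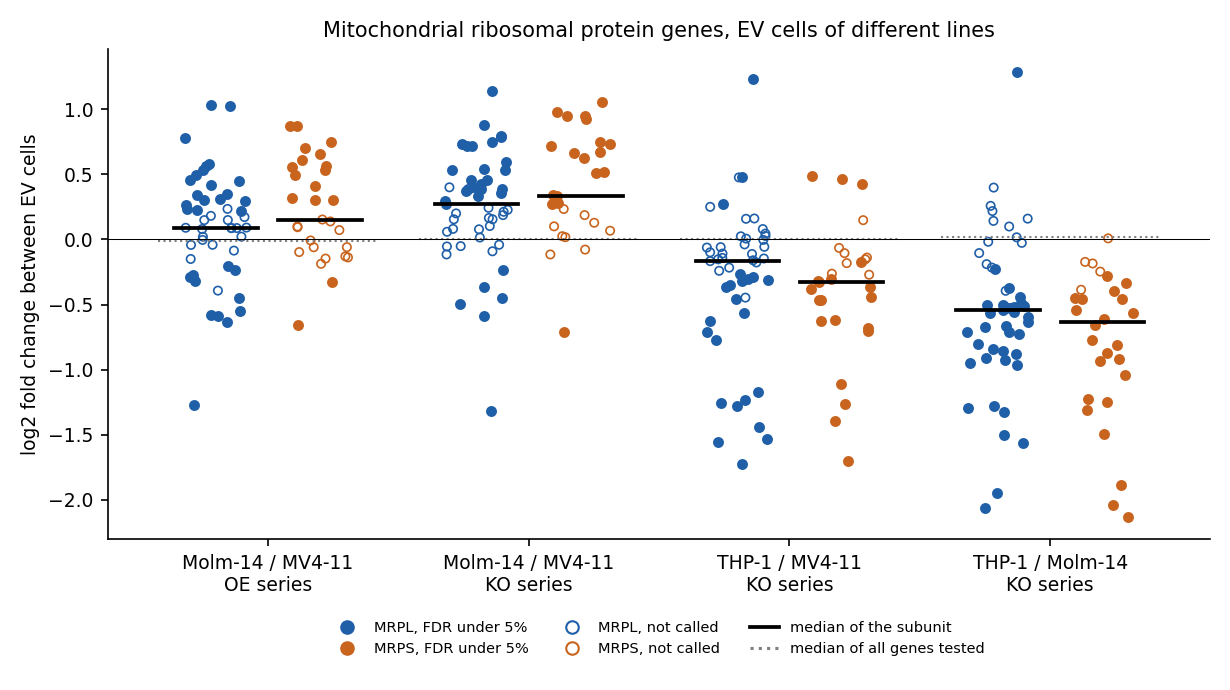
Log2 fold change of every MRPL and MRPS gene between EV cells of different lines, 1 column per comparison (x axis), with filled points for FDR under 5%, black bars at the subunit medians and dotted lines at the medians of all genes tested. The MRPS median moves from 0.34 for Molm-14 over MV4-11 to -0.63 for THP-1 over Molm-14 in the knockout experiment, and MRPL37 stands alone at 1.29 in the latter.

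Taking the mean EV level per line, the order Molm-14, MV4-11, THP-1 held for 27 of 49 MRPL genes (55.1%) and 21 of 28 MRPS genes (75%), beside 69.6% of 79 cytosolic ribosomal proteins and 19.4% of all genes. The cytosolic ribosomal proteins thus took the same order as the mitochondrial ones: THP-1 was lower than Molm-14 for 74 of 79 of them and higher for 0. The summed MRPL level was 3971 ± 267 CPM (SD, n = 3) in Molm-14, 3274 ± 307 in MV4-11 and 2783 ± 231 in THP-1, and the MRPS sums were 2944 ± 166, 2048 ± 199 and 1622 ± 142 CPM. MRPS sums varied more between the lines than MRPL sums, and the ratio of both was 1.35 ± 0.015 in Molm-14, 1.599 ± 0.023 in MV4-11 and 1.72 ± 0.032 in THP-1, without overlap. In the overexpression experiment the EV ratios were 1.34 ± 0.018 in Molm-14 and 1.56 ± 0.017 in MV4-11.

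The other genes of mitochondrial translation also differed between the lines, though not all in the same order. Molm-14 was higher than MV4-11 for 11 and lower for 0 of 18 translation factors in the overexpression experiment (beside 31.9% higher and 32.9% lower of all genes), and for 13 and 0 in the knockout experiment (beside 31.6% and 30.1%). TSFM, the exchange factor of the mitochondrial elongation factor Tu, was among them (1.12 and 1.19), and it was lower in THP-1 than in Molm-14 (-1.94). Of the tRNA synthetases, 15 were higher and 1 lower of 20 in the overexpression experiment and 14 and 0 in the knockout experiment, and VARS2 lay lowest in THP-1 against Molm-14 (-3.14). The assembly factors gave 12 higher and 6 lower, and 15 higher and 5 lower, of 28, so that 64.3% of them were called in the overexpression experiment, beside 64.8% of all genes. TFB1M, a methyltransferase of the small subunit rRNA, was higher in Molm-14 (1.06 and 1.46). DAP3, a GTP-binding protein of the small subunit that bears no MRPS symbol, was higher in Molm-14 (0.65 and 0.84). THP-1 against Molm-14 had 0 higher and 5 lower of the 5 mitoribosomal proteins with other symbols, with CHCHD1 at -2.08, 0 higher and 16 lower of the translation factors and 0 higher and 21 lower of the assembly factors, beside 35.5% higher and 34.1% lower of all genes. Against MV4-11 the directions in THP-1 were mixed. CHCHD1 (-1.47), TSFM (-0.75) and VARS2 (-2.39) were called lower there. DAP3 (0.65), the translation factor MTFMT (1.15) and QRSL1 of the tRNA synthetase list (1.01) were called higher.

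The differences between lines were also read by position. The 78 genes lie on 21 chromosomes, and all 6 on chromosome 6 (MRPL2, MRPL14, MRPL18, MRPS10, MRPS18A and MRPS18B) were called higher in Molm-14 than in MV4-11 in both experiments, an arrangement chosen after its values were seen. Their medians were 0.59 and 0.81, and the genes within 10 Mb of them had medians of 0.40 and 0.49. Both genes on chromosome 10, MRPS16 and MRPL43, were called higher in Molm-14 than in MV4-11 and lower in THP-1. For each member, the log2 fold change was set beside the median of all tested genes within 10 Mb. Across members, Pearson's correlation was 0.535 (n = 78) and 0.555 (n = 77) for Molm-14 over MV4-11 in both experiments, 0.686 for THP-1 over MV4-11 and 0.745 for THP-1 over Molm-14, with Spearman's rho of 0.508, 0.508, 0.507 and 0.424. Members had the sign of their neighbours' median in 48 of 78, 43 of 77, 41 of 77 and 28 of 77 cases in the same order. Members of 1 chromosome share neighbours, so these are descriptions. The lines' copy numbers are not analysed here, and their part was not tested.

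For MRPS16 and MRPL43 in THP-1 against Molm-14, the members lay at -2.13 and -2.07 and their neighbours at -1.43 and -1.55. MRPL37 lay at 1.29 beside 0.64, and MRPL42 and MRPS30 in Molm-14 over MV4-11 at 1.14 and 0.98 beside 0.74 and 0.68. Other members left their surroundings. MRPL33 lay at -1.32 where its neighbours had -0.19, MRPS27 at 1.06 beside 0.25, and MRPL45 at 0.75 beside -0.13 (knockout experiment). Members lay above their neighbours in 61 of 77 cases for Molm-14 over MV4-11 in the knockout experiment (52 of 78 in the overexpression experiment), and in 13 of 77 and 8 of 77 for THP-1 over MV4-11 and over Molm-14.

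**Figure D5:**
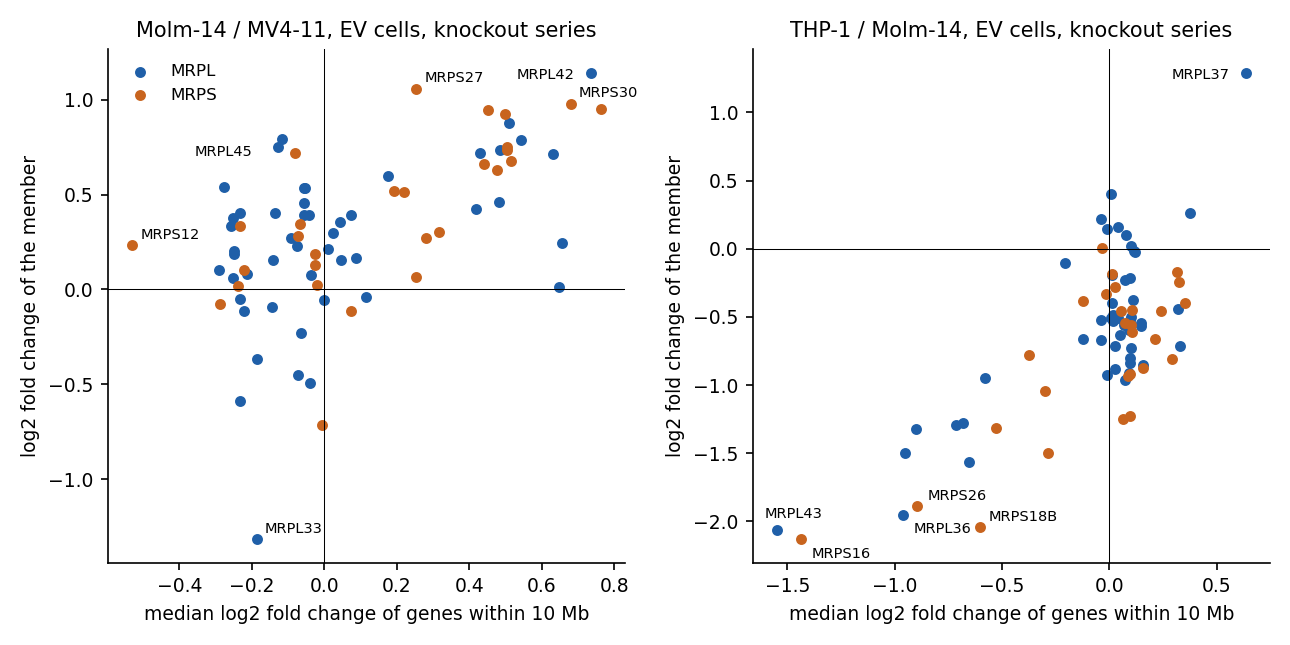
Log2 fold change of each member (y axis) against the median log2 fold change of the tested genes within 10 Mb of it (x axis), for EV cells of the knockout experiment, Molm-14 over MV4-11 (left) and THP-1 over Molm-14 (right). MRPL43 and MRPS16 stand at the lower left of the right panel with neighbours at -1.55 and -1.43, whereas MRPL33 in the left panel lies at -1.32 with neighbours at -0.19.

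Promoter sequence was read for what the members share apart from their symbol. RefSeq start sites (GRCh38.p14, 250 bases before to 50 after) matched 42 MRPL and 27 MRPS genes. The letters AAGATGGC, the core of the motif of YY1, stood on either strand in 31.0% of these MRPL and 29.6% of MRPS promoters, beside 4.74% of 15345 protein-coding genes. The letters CCGGAAG, the core of the ETS family motif, stood in 42.9% and 44.4% beside 16.7%, and the NRF1 motif (GCGCA, any base, GCGC) in 16.7% and 7.41% beside 9.72%. These are shares of windows with the letters and not shares of bound promoters. The promoters of MRPS30 (chr5:44808697-44808996, plus strand) and MRPS16 (chr10:73252595-73252894, minus strand) are shown because MRPS30 had the highest TPM among MRPS genes by canonical length and MRPS16 the largest drop in THP-1 against Molm-14, and that of MRPL12 (chr17:81703117-81703416, plus strand) because it held none of the 3 motifs. The lack of motifs is not particular to MRPL12, since other members, such as MRPL1, MRPL4 and MRPS6, also held none. Capitals mark the YY1 letters in MRPS30 and the ETS letters, read from the other strand, in MRPS16.
MRPS30: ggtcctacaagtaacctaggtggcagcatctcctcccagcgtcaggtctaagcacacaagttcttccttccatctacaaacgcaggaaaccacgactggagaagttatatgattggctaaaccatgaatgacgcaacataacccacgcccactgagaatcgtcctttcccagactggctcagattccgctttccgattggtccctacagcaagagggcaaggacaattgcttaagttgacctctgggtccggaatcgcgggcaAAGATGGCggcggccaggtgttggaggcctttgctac
MRPS16: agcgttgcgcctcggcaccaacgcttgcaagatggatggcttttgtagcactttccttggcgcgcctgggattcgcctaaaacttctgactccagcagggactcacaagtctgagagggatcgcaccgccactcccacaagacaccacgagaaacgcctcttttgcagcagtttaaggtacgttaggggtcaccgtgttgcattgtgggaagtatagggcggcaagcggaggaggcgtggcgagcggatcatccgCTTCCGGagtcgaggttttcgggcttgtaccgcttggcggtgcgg
MRPL12: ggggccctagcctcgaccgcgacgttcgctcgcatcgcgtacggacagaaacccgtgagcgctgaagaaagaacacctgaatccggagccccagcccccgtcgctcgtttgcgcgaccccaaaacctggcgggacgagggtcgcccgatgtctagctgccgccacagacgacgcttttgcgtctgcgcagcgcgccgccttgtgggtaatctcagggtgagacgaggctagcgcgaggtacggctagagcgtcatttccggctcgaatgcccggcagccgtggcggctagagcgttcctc

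Members with the YY1 letters had a median log2 fold change of Molm-14 over MV4-11 of 0.23 (21 genes), beside 0.092 for 48 without, in the overexpression experiment, and 0.40 (20 genes) beside 0.21 (48 genes) in the knockout experiment. For THP-1 over MV4-11 the medians were -0.13 and -0.32, and for THP-1 over Molm-14 they were -0.52 and -0.56. For the ETS letters the latter medians were -0.47 with and -0.58 without, and for NRF1 -0.88 and -0.53. For Molm-14 over MV4-11 the ETS medians were 0.12 and 0.15 (overexpression) and 0.27 and 0.32 (knockout), and the NRF1 medians 0.23 and 0.12, and 0.24 and 0.30. In the KO comparisons the medians with and without the YY1 letters were 0.092 and 0.086 (MV4-11), 0.023 and 0.075 (Molm-14) and 0.113 and 0.101 (THP-1). These medians are given with no test.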

How the data were processed

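Total RNA of 30 libraries in 10 groups was sequenced after ribosomal RNA removal with a stranded kit. Per the labels and the study's methods, the authors trimmed reads with cutadapt 1.16, aligned them to GRCh38 with STAR 2.7.6a and counted them with featureCounts 1.6.3, and the deposited values are raw read counts per Ensembl gene. The strand setting of the counting is not given in the sources used here. Here, symbols came from GENCODE release 44. Counts of each experiment (12 and 18 libraries) were fitted in edgeR 4.0.16 (R 4.3.3) with filterByExpr, TMM scaling, 1 coefficient per group, the quasi-likelihood test and Benjamini-Hochberg adjustment over all genes tested; DESeq2 1.42.0 was an alternative. CPM use TMM-scaled library sizes. No pair of replicates agreed within sampling noise (chi-square per degree of freedom 1.50 to 15.8), so all libraries were kept. Intervals of fold changes are 95%. The code was tested on simulated data. Alternatives were another size factor, no filter, only the groups compared, a replicate block and leaving out each library; union exon lengths and a window of 5 Mb were added after seeing the data.

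Members and lists were chosen with earlier results of these data known. Named are, per comparison and subunit, up to 5 called members in each direction by size of change with a mean of at least 100 counts (if none, the 2 of smallest p), the highest and lowest by TPM, a fixed list (MRPS6, MRPS18A, MRPS18B, MRPS18C, MRPS30, MRPL12, MRPL45, MRPS12, MRPL58), members called in both experiments, and partner genes; MRPL16, MRPL51, MRPS17 and seed-match genes fall under these rules or under the motif search. Between EV and KO of THP-1, the deviations of same-numbered libraries had correlations of 0.385, 0.301 and 0.619. EV replicate 2 correlated more with KO replicate 1 (0.39) than with the KO library of its number. A block by number changed no call there.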

Additional observations from a re-analysis of the deposited data

Results flagged for a closer look

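Of the differences between lines in the response to a treatment, 2 members passed the test of the difference itself. The change of MRPL12 under MPC1 KO was higher in Molm-14 than in MV4-11 by 1.48 (log2 scale, SE 0.326, edgeR FDR 0.0172). MRPL12 had 39 to 130 counts in the 6 MV4-11 libraries and 46 to 111 in the 6 Molm-14 libraries, the KO was lower than the EV in MV4-11 without overlap, and the Molm-14 groups overlapped. The change of MRPL4 was higher in Molm-14 by 0.64 (SE 0.162, FDR 0.0424). Both calls were lost when any of 4 libraries was left out (MV4-11 EV replicate 3, MV4-11 KO replicate 1, Molm-14 EV replicate 3, Molm-14 KO replicate 2), with FDR up to 0.0838 for MRPL12 and 0.170 for MRPL4. No other member passed such a test between any pair of lines.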

How the results depend on the processing

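The number of members called was recomputed in 334 alternatives over the 13 comparisons, and 319 stayed within 1.5 times the main count or at 0. With a replicate block, the MV4-11 KO gave 7 MRPL calls (5 higher, 2 lower) in place of 2 and 2 MRPS calls in place of 0. The numbers do not pair the libraries there, and the cause was not tested. Leaving out 1 library moved the MV4-11 KO count from 0 to 6 for MRPL and 0 to 3 for MRPS, and the MRPL count of the difference between Molm-14 and MV4-11 from 0 to 3. In the MV4-11 KO, MRPL calls numbered 6 when EV replicate 1 was left out, 1 for EV replicate 2, and 0 for EV replicate 3 or KO replicate 1. For the fits with a block or without 1 library, the share of all genes called is not given, so no excess is read from their counts. In the OE comparisons and in the Molm-14 and THP-1 KO, the count was 0 in each such fit. For the named members, 2143 of 2201 alternatives kept direction and side of the threshold, 45 lost the call, 13 gained it and 0 reversed. MRPL51 (Molm-14 over MV4-11, knockout experiment) was lost in 5 alternatives. Low counts in the knockout experiment limit MRPL12, MRPL38, MRPL53 and MRPS24.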
